A study of Mus musculus with 6 samples.

Results

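Clustered histone genes are the genes of the histone clusters that carried the older symbols Hist1h, Hist2h, Hist3h and Hist4h, and 66 of the 28752 genes in the deposited table belong to them. The table names only 9 of the 66 by such a symbol (for example Hist1h4n) and the others by newer ones (H1f2 for Hist1h1c, H2bc4 for Hist1h2bc), so members were found by matching gene identifiers to the older symbols in GENCODE M21. That annotation holds 70 genes with such symbols, and the other 4 were not analysed here. By class, 5 members were linker histone H1 genes, 18 were H2A, 18 H2B, 12 H3 and 13 H4 genes. On the GRCm38 build 54 lay on chromosome 13, 8 on chromosome 3, 3 on chromosome 11 and 1 on chromosome 6, and 61 of the 66 had a single annotated exon.

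RNA sequencing was performed in 6 mouse samples of Lgr5+ intestinal stem cells (ISCs), the dividing cells of the crypt base, taken from Lgr5-GFP mice and cultured as crypt-villus organoids. The groups were vector (n = 3, genotype given as WT) and circEZH2_005 (n = 3, overexpressing this circular RNA from an adenovirus). By the labels both groups were infected for 72 h. Both were under hypoxia/reoxygenation (H/R) with 4 h of hypoxia at 2% O2. The comparison therefore addresses the effect of circEZH2_005 under H/R only. The table names its control columns NC rather than vector, and each was taken as the vector sample of the same number because the labels hold no other control. The study describes its experiments in general as independent biological replicates, and the labels do not say whether the 3 samples of a group came from separate animals, so p-values measure the spread between these samples.

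H2A, H2B, H3 and H4 form the protein core around which DNA is wrapped, and H1 binds the linker DNA between the cores. The clustered genes are transcribed mainly in S phase, and their mRNAs normally end in a conserved stem-loop instead of a poly(A) tail. The stem-loop is bound by the protein SLBP. Some clustered genes also give longer or spliced transcripts with a poly(A) tail, in particular in cells that have left the cycle. The RNA sequenced here was selected with oligo(dT) beads, which capture tails, so the values are the captured RNA and not the whole output of these genes.

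The stem-loop was searched for in the annotated transcript of each member with the letters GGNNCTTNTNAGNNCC on the transcript strand, where the 2 bases before the first C and the 2 after AG had to pair. It was found in 43 of the 66 members, against 0.111% of 58797 protein-coding transcripts in GENCODE M21. It occurred in 8 different forms, with variation in the loop and in 2 of the stem pairs: the form of H1f2 stood in 24 members of H1, H2A, H2B and H3, and the form of H4c4 in 7 members, all H4. Examples of the 8 forms are shown because the members are grouped below by how far their transcripts run past this element; capitals mark the stem-loop, with 5 bases on either side, all from GENCODE M21 on GRCm38. H1f2 and H2bc11 share 1 form but have 840 and 23 annotated bases past it. The positions were chr13:23739507-23739532 (H1f2, plus strand), chr13:22043633-22043658 (H2bc11, plus), chr13:22036295-22036320 (H2bc12, plus), chr3:96220413-96220438 (H2ac20, minus), chr13:23535884-23535909 (H3c8, plus), chr13:22040961-22040986 (H4c9, minus), chr13:23581945-23581970 (H4c4, plus), chr13:23757361-23757386 (H4c2, plus) and chr13:23760795-23760820 (H4c1, minus).
H1f2: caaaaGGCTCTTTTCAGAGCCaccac
H2bc11: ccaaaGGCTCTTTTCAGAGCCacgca
H2bc12: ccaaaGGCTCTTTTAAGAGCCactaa
H2ac20: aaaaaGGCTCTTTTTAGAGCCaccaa
H3c8: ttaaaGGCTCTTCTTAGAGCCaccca
H4c9: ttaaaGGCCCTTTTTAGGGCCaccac
H4c4: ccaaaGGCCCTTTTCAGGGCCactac
H4c2: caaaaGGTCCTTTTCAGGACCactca
H4c1: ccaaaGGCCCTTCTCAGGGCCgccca

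By their annotated ends the members fell into 3 groups. The 26 long-ended members ran more than 100 bases past the stem-loop or were spliced, the 21 short-ended members stopped within 100 bases of it, and the other 19 had no stem-loop in the annotated transcript. These 19 had a median annotated length of 399 bases. A stem-loop beyond the annotated end could not be found, so their RNAs may still carry one. A poly(A) signal (AATAAA or ATTAAA, transcript strand) stood in the last 50 bases of 14 long-ended members, 1 short-ended member (H4c8) and 1 member without a stem-loop (H2bc21), against 50.2% of all protein-coding transcripts. The match is a description of the annotation and not evidence of where these RNAs ended. Many members are near copies: 31 shared at least 50% of their 50-base windows with another member, so the counts of single members are uncertain where reads could be split between copies. A further limit is that 23 members overlapped another annotated gene, and the strand setting of the counting is not given in the sources used here.

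The libraries held between 71506487 and 79919893 counts, and members together took between 0.00911% and 0.0129% of them. At that depth 3 counts correspond to between 0.0377 and 0.0419 CPM (counts scaled by library size and TMM), a limit that covers counting error only. Epithelial and stem cell markers were counted in every library, and none of the 11 of either list was at 0. The sum of 20 leukocyte markers was 112, 313 and 136 CPM in vector samples 1 to 3 and 710, 558 and 418 CPM in circEZH2_005 samples 1 to 3. In such bulk RNA, fewer cells of a type and less RNA per cell cannot be told apart.

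Library circEZH2_005 3 stood apart in the summed level of RNAs that carry no poly(A) tail. Over a list of 28 such RNAs the sum was 2.68, 21.1 and 3.45 CPM in the vector samples and 2.30, 6.52 and 199 CPM in the circEZH2_005 samples. Most of the sum in circEZH2_005 3 came from Rn7s1 and Rn7s2, near-identical RNAs on the list. Rn7sk, a small nuclear RNA that restrains transcription elongation, had 20, 315 and 27 counts against 22, 96 and 2595, and Rmrp, the RNA of a ribonuclease, had 0, 67 and 2 against 4, 3 and 879. Vector 2 was second in both, far below circEZH2_005 3. Of the 28 RNAs 8 had enough counts to be tested and 0 passed the adjusted p of 0.05 (smallest 0.281, Rpph1, edgeR), 0 of them at an unadjusted p under 0.05. Of these 8, 5 were highest in circEZH2_005 3 (9.87% of all genes tested), 2 in circEZH2_005 2 and 1 in vector 1. Their log2 fold changes were above 0 in 6 and below 0 in 2. Fold changes of the named members are given below also without circEZH2_005 3, and the part of this RNA in the results for histone genes was not tested.

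Captured histone RNA was low and came mostly from a few members. Per length, the 66 members summed to 94.3, 72.6 and 96.5 FPKM (fragments scaled by transcript length and library size) in the vector samples and to 75.4, 68.8 and 101 FPKM in the circEZH2_005 samples, and the median member had a mean of 0.361 FPKM. By contrast, 14 variant histone genes outside the clusters, most of which are known for mRNAs with a poly(A) tail (H2ax also gives one ending in the stem-loop), summed to between 531 and 678 FPKM in the 6 libraries. H2bc4 had the highest level among members, with a mean of 30.6 FPKM, followed by H1f2 (14.9 FPKM), H2bc8 (6.38 FPKM), H4c9 (4.71 FPKM) and H2aw (2.92 FPKM). In terms of counts, H1f2 gave 91.0% of the H1 counts, H2bc4 69.4% of H2B, H2aw 64.1% of H2A, H4c9 57.4% of H4 and H3c14 33.3% of H3.

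**Figure D1:**
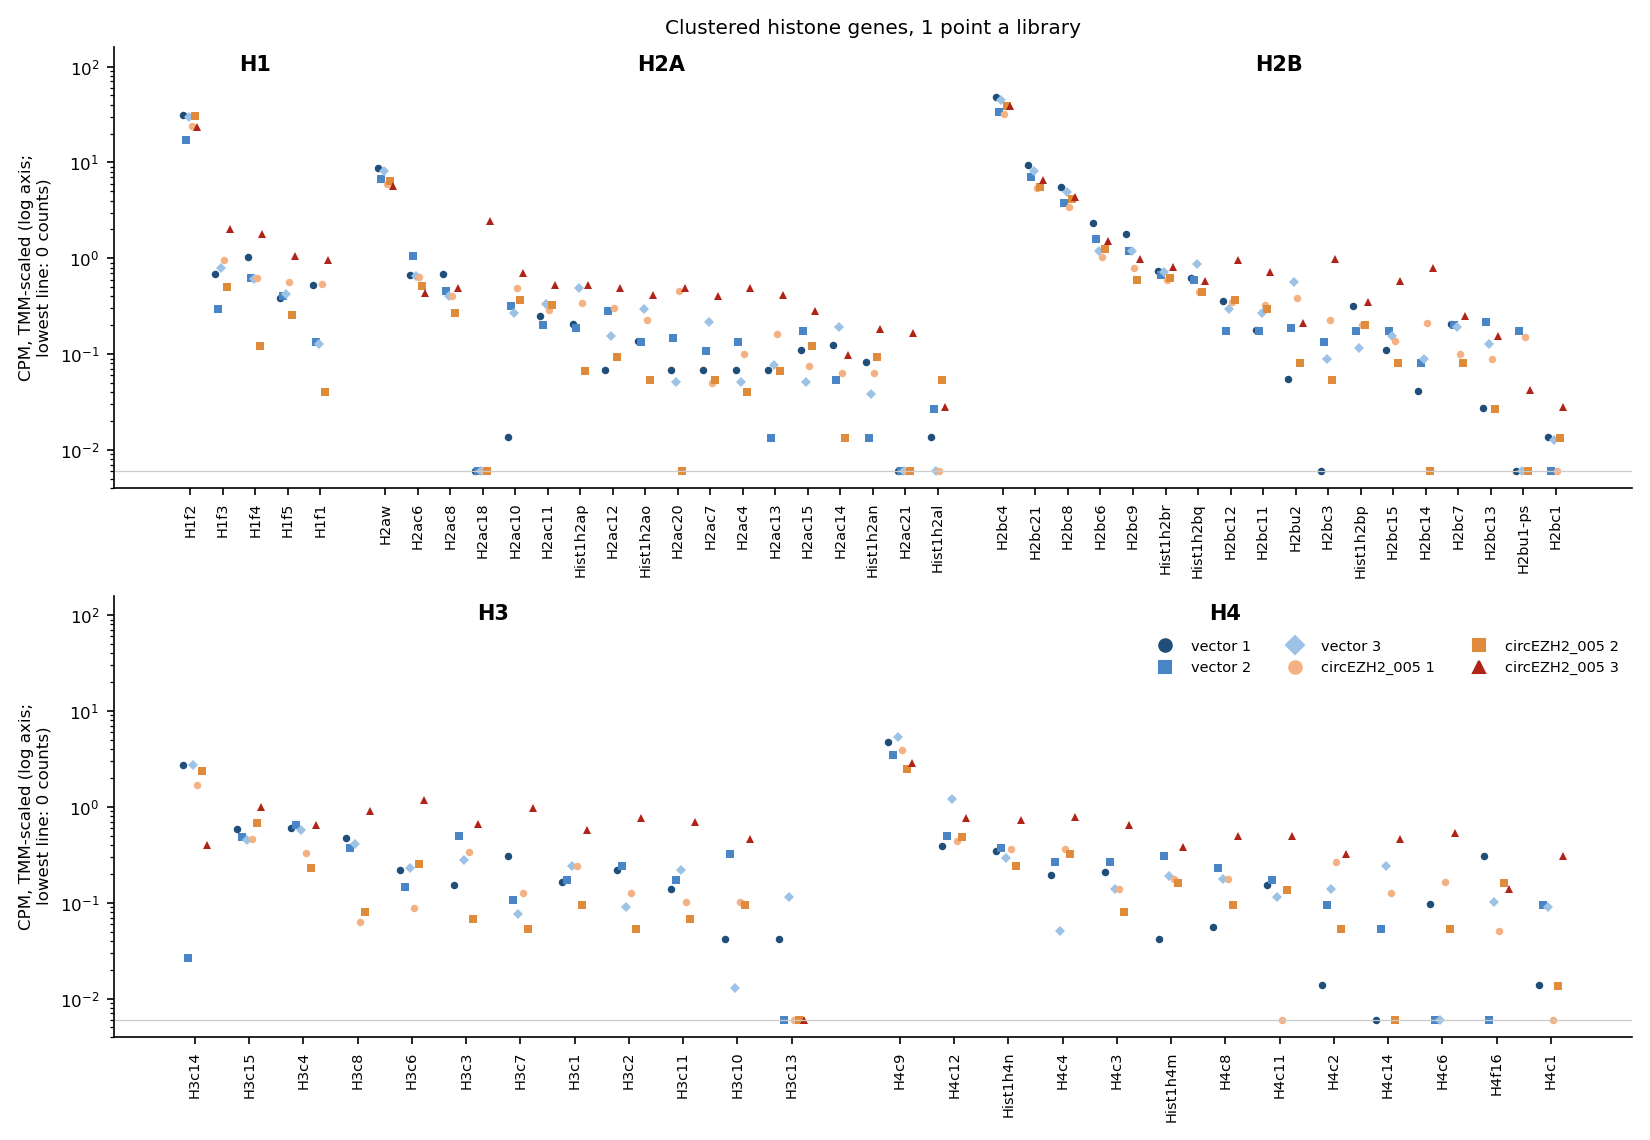
CPM of each of the 66 clustered histone genes on a log axis, by class, with 1 point for each of the 6 libraries (blue, vector; orange and red, circEZH2_005); points on the lowest line had 0 counts. A few members of each class stood above the others, and the red triangles of circEZH2_005 3 were the highest point of 45 of the 66 members.

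No clustered histone gene passed the adjusted p of 0.05 between circEZH2_005 and vector. Enough counts for the test were present in 47 of the 66 members, and 0 of them passed in edgeR's quasi-likelihood test, against 3.67% of the 18348 genes tested, with a smallest adjusted p of 0.134 for H2bc21. At an unadjusted p under 0.05 there were 3 members (H2bc21, H2bc9 and H2aw, all lower with circEZH2_005), against 23.7% of all genes tested in either direction and 9.72% in the lower one. DESeq2 and limma also called 0, and so did the filter of a fold change over 2 or under 0.5 with an unadjusted p under 0.05 (7.56% of all genes tested, 6.22% higher and 1.34% lower). Some scarce members could not be called there. DESeq2 gave them no adjusted p, and limma covered only members with a mean of at least 0.5 FPKM. The precision set how much could be seen: the standard error of the log2 fold change had a median of 0.70 over the 47 and ran from 0.14 for H2bc4 to 1.27 for H2bc3. Differences of the size of these errors were not detectable, and larger ones could also be missed. H2bc21, at -0.49 with a standard error of 0.17, did not pass.

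The direction over the members depended on 1 library. Log2 fold changes (circEZH2_005 over vector) were above 0 in 28 of the 47 and below 0 in 19, with a median of 0.31 beside 0.00 over all genes tested. Without circEZH2_005 3 they were above 0 in 15 and below 0 in 32, with a median of -0.25. The 9 genes named by an older symbol in the table itself held no H1 or H3 gene, and their 7 tested members had a median of 0.30 (5 above 0 and 2 below), and of -0.23 without circEZH2_005 3 (0 above and 7 below). The groups did not overlap in 8 members (17.0% of the 47, against 30.6% of all genes tested), with H2ac10, H2bc11 and H4c4 higher (16.4% of all genes) and H2aw, H2ac6, H2bc21, H2bc9 and Hist1h2bq lower with circEZH2_005 (14.2% of all genes). H2ac10, H2bc11 and Hist1h2bq are named only for this count, after their values were seen.

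**Figure D2:**
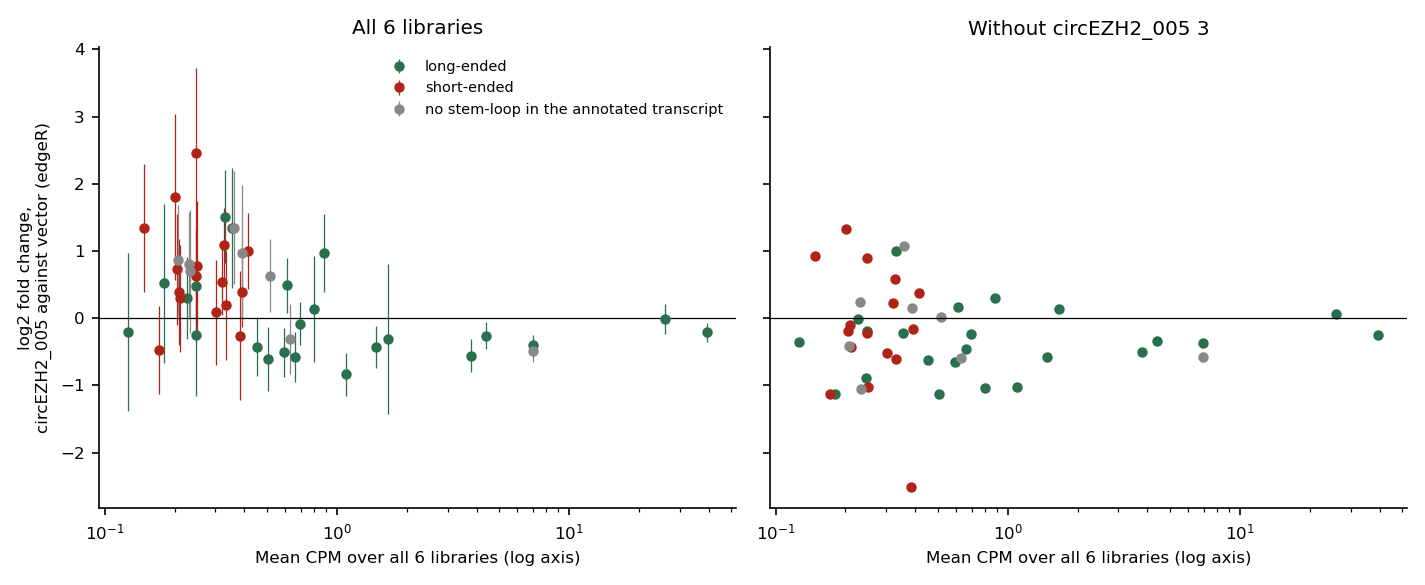
Log2 fold change of the 47 tested members against their mean CPM (log axis), coloured by the end of the annotated transcript, with all 6 libraries on the left (bars, standard error) and without circEZH2_005 3 on the right. On the left the points above 0 were scarce members, while 7 of the 8 most abundant lay below 0 and H1f2 at -0.01; on the right the median of all points was -0.25.

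The 8 members with a mean of at least 100 counts, a split chosen after their values were seen, had log2 fold changes between -0.56 and -0.01. Without circEZH2_005 3, 6 of the 8 were below 0, and H1f2 and H3c14 were at 0.06 and 0.14. They were H1f2, H2bc4, H2bc8, H2bc6, H2bc21, H2aw, H4c9 and H3c14, and 6 of them had a poly(A) signal at the annotated end. Just inside the split was H2bc6 with a mean of 110.5 counts and just outside was H2bc9 with 82.0. Together the 8 summed to 112.6, 73.7 and 105.4 CPM in the vector samples and to 77.6, 91.3 and 83.2 CPM in the circEZH2_005 samples, so the groups overlapped, with vector 2 the lowest of the 6. None of the 8 was highest in circEZH2_005 3, and 7 were highest in vector 1.

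H1f2 (chromosome 13, 23738808 to 23740367, plus strand) encodes the linker histone H1.2. Its counts were 2273, 1288 and 2316 in the vector samples and 1913, 2261 and 1665 in the circEZH2_005 samples. Vector 2 was the lowest and the groups overlapped, with a log2 fold change of -0.01 ± 0.23 (SE, adjusted p = 0.985, edgeR) and a 95% interval from -0.53 to 0.51, and 0.06 without circEZH2_005 3. The other H1 genes were far scarcer and highest in circEZH2_005 3. H1f3 (H1.3) had 50, 22 and 62 counts against 77, 37 and 145. H1f4 (H1.4, which overlaps H2bc6) had 75, 47 and 48 against 49, 9 and 127, with circEZH2_005 holding both the lowest and the highest value. H1f1 (H1.1) had 38, 10 and 10 against 43, 3 and 69. Their log2 fold changes were 0.97, 0.14 and 0.97, and without circEZH2_005 3 they were 0.31, -1.04 and 0.15. The summed H1 level was 34.0, 18.7 and 31.5 CPM against 26.8, 31.3 and 29.1 CPM, a log2 ratio of 0.05 that was -0.18 without vector 2 and 0.05 without circEZH2_005 3.

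Among H2A genes, H2aw (chromosome 11, 58954685 to 58956830, plus strand) was the most abundant. The gene had 640, 503 and 644 counts in the vector samples and 474, 472 and 410 in the circEZH2_005 samples. All 3 circEZH2_005 values lay below the vector values, with a log2 fold change of -0.40 ± 0.16 (SE, adjusted p = 0.178, edgeR), and the gene overlaps Trim17 in the annotation. Without circEZH2_005 3 the value was -0.37. H2ac6 had 48, 79 and 51 counts against 51, 38 and 31, which also did not overlap once scaled to CPM (log2 fold change -0.58, adjusted p = 0.397, edgeR, and -0.46 without circEZH2_005 3). H2ac8 had 50, 34 and 32 counts against 32, 20 and 35 and overlapped (log2 fold change -0.42, and -0.62 without circEZH2_005 3). H2ac20 had 5, 11 and 4 counts against 36, 0 and 35, so the circEZH2_005 group held 2 high libraries and 1 at 0 (log2 fold change 1.80 ± 1.23, adjusted p = 0.429, edgeR, and 1.33 without circEZH2_005 3). H2ac18, named after its values were seen, was counted only in circEZH2_005 3, with 176 counts there and 0 in the other 5 libraries, and was not tested. It shares 89.2% of its windows with Hist2h2aa2, which was not analysed here. The H2A sum was 11.5, 10.04 and 11.5 CPM against 9.62, 8.47 and 14.3 CPM (log2 ratio -0.03). It was 0.64 without H2aw and -0.28 without circEZH2_005 3.

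H2B held the largest sum of the 5 classes, 69.4, 50.4 and 64.2 CPM in the vector samples and 46.0, 52.6 and 58.4 CPM in the circEZH2_005 samples (log2 ratio -0.23, and -0.31 without circEZH2_005 3). H2bc4 (chromosome 13, 23684199 to 23692908, plus strand), annotated with 2 exons, had 3455, 2528 and 3546 counts against 2558, 2891 and 2762. Vector 2 fell among the circEZH2_005 values, and the log2 fold change was -0.21 ± 0.14 (SE, adjusted p = 0.426, edgeR). H2bc21 (chromosome 3, 96221119 to 96223738, plus strand), which encodes an H2B form known from olfactory neurons, had 674, 525 and 631 counts against 426, 411 and 467. The groups did not overlap, and its log2 fold change of -0.49 ± 0.17 (SE, n = 3 a group, 95% interval -0.88 to -0.10) had the smallest p of the members, with an adjusted p of 0.134 (edgeR) and an exact permutation p of 0.1, the smallest that 3 against 3 samples can give. It shared no window with another member. H2bc9 likewise did not overlap, with 131, 90 and 94 counts against 63, 44 and 70 (log2 fold change -0.83 ± 0.32, adjusted p = 0.172, edgeR). Without circEZH2_005 3 the log2 fold changes of H2bc4, H2bc21 and H2bc9 were -0.25, -0.58 and -1.02. H2bc8 had 405, 284 and 388 counts against 275, 308 and 316, and vector 2 again lay among the circEZH2_005 values (log2 fold change -0.26, and -0.33 without circEZH2_005 3). H2bc3, short-ended, had 0, 10 and 7 counts against 18, 4 and 70. Its log2 fold change of 2.46 ± 1.27 (adjusted p = 0.293, edgeR), the largest of all members, was 0.90 without circEZH2_005 3.

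Summed H3 levels were 5.69, 3.19 and 5.43 CPM against 3.65, 4.03 and 8.28 CPM (log2 ratio 0.16). The ratio was -0.31 without circEZH2_005 3, -0.06 without vector 2 and -0.53 without both. H3c14 had 198, 2 and 214 counts against 133, 176 and 29. The 2 low libraries were vector 2 and circEZH2_005 3, which had the most Rn7sk, and a link of H3c14 to that RNA was not tested. All windows of H3c14 are shared with some other gene, 34.7% of them with members, and it overlaps Gm20634. Its counts are therefore uncertain (log2 fold change -0.31, and 0.14 without circEZH2_005 3). H3c15 had 43, 36 and 35 counts against 37, 50 and 72, and H3c4 had 44, 48 and 45 against 26, 17 and 46. In circEZH2_005 3 the first was at its highest, while the second lay among the vector values. Their log2 fold changes were 0.49 and -0.61, and without that library 0.16 and -1.13. H3c6 had 16, 11 and 18 counts against 7, 19 and 85, so its log2 fold change of 1.34 was -0.22 without circEZH2_005 3. H3c8, chosen for mention after its values were seen, had 34, 28 and 32 counts against 5, 6 and 65. Its circEZH2_005 values lay on both sides of the vector values, with a log2 fold change of -0.26, and -2.52 without circEZH2_005 3.

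H4 summed to 6.53, 5.82 and 8.10 CPM against 6.14, 4.29 and 8.89 CPM (log2 ratio -0.08, and -0.39 without circEZH2_005 3). H4c9 (chromosome 13, 22040636 to 22041362, minus strand), long-ended with a poly(A) signal, had 342, 259 and 418 counts against 308, 185 and 203. Of the circEZH2_005 values 1 lay above the lowest vector value, and the log2 fold change was -0.56 ± 0.25 (SE, adjusted p = 0.227, edgeR), and -0.50 without circEZH2_005 3. H4c4 had 14, 20 and 4 counts against 29, 24 and 56. All 3 circEZH2_005 values were above the vector values. Its log2 fold change was 1.51 ± 0.70 (adjusted p = 0.239, edgeR), and 1.00 without circEZH2_005 3. H4c12 had 28, 37 and 95 counts against 35, 36 and 55 and overlapped (log2 fold change -0.31, and -0.60 without circEZH2_005 3). Hist1h4n, short-ended, had 25, 28 and 23 against 29, 18 and 52, highest in circEZH2_005 3 and otherwise overlapping (log2 fold change 0.39, and -0.16 without that library).

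Short-ended members were highest in circEZH2_005 3 without exception: all 16 tested had their highest CPM there, and all 21 when those with too few counts for the test are included. Over the tested members of every kind 31 of 47 (66.0%) were highest in that library, against 9.87% of all genes tested and 14.6% of the 5541 tested genes with a mean under 100 counts. Members share sequence and a library, so these counts are a description. In sum the short-ended members had 3.15, 3.96 and 4.19 CPM in the vector samples and 4.59, 2.23 and 14.4 CPM in the circEZH2_005 samples. The other 2 circEZH2_005 libraries thus lay on either side of the vector range, circEZH2_005 1 above it and circEZH2_005 2 below it. Vector 2, second in Rn7sk and Rmrp, lay between vector 1 and vector 3 in this sum. The part of RNA without a tail in this sum was not tested.

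**Figure D3:**
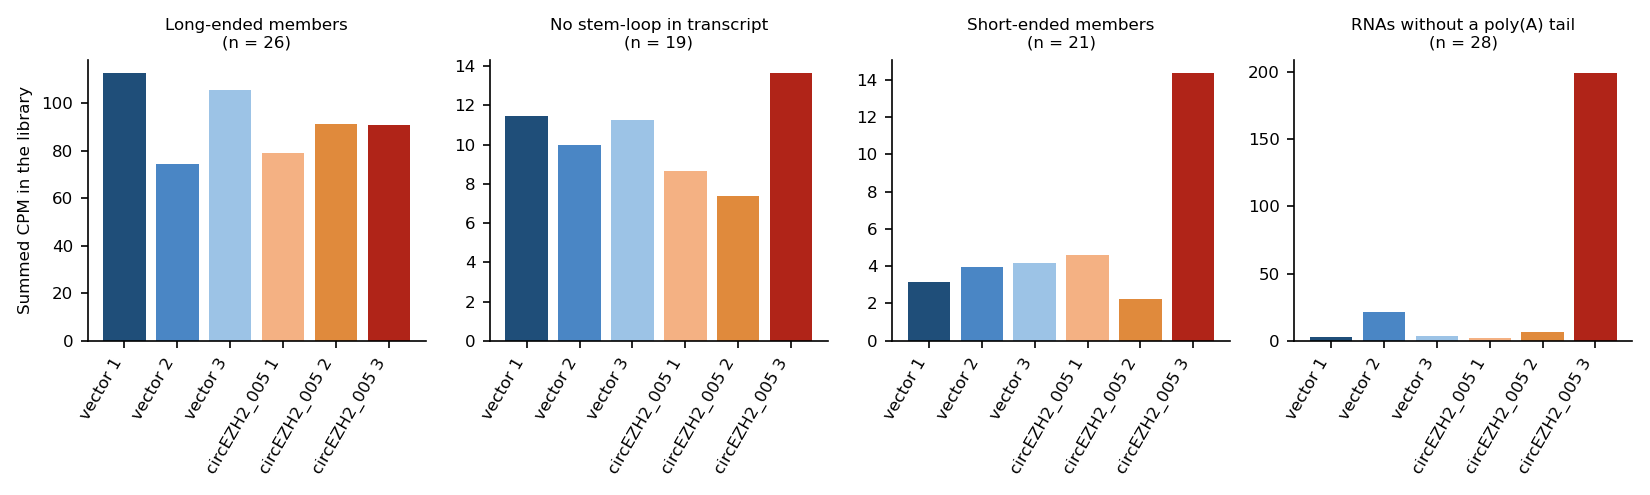
Summed CPM in each of the 6 libraries, each panel with its own axis from 0, for long-ended members, members without a stem-loop in the annotated transcript, short-ended members and 28 RNAs that carry no poly(A) tail. Short-ended members (14.4 CPM), members without a stem-loop (13.6 CPM) and the RNAs without a tail (199 CPM) had their highest sum in circEZH2_005 3, and long-ended members had theirs in vector 1.

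Members with other ends were highest in that library less uniformly, and the difference between the groups was not tested. It held the highest CPM of 9 of 23 tested long-ended members (39.1%), as many as vector 1, and of 6 of 8 tested members without a stem-loop (75.0%). Among the 39 tested members with a mean under 100 counts it held 31, and among the 8 above that mean 0. End and level went together: short-ended members had means of at most 30.8 counts, and long-ended ones of up to 2957. The shares by end were not compared at equal level. Of the 23 tested long-ended members 15 had a log2 fold change below 0 (median -0.21), against 2 of 16 short-ended members (median 0.58) and 2 of 8 without a stem-loop (median 0.75). Without circEZH2_005 3 the medians of the 3 groups were -0.35, -0.17 and -0.19. Of the members with a poly(A) signal 11 of 14 tested were below 0 (median -0.27), and without that library 12 of 14 (median -0.36). A further 19 members, with means between 0.833 and 29.3 counts, had too few counts for the test, and 14 of them were highest in circEZH2_005 3.

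**Figure D4:**
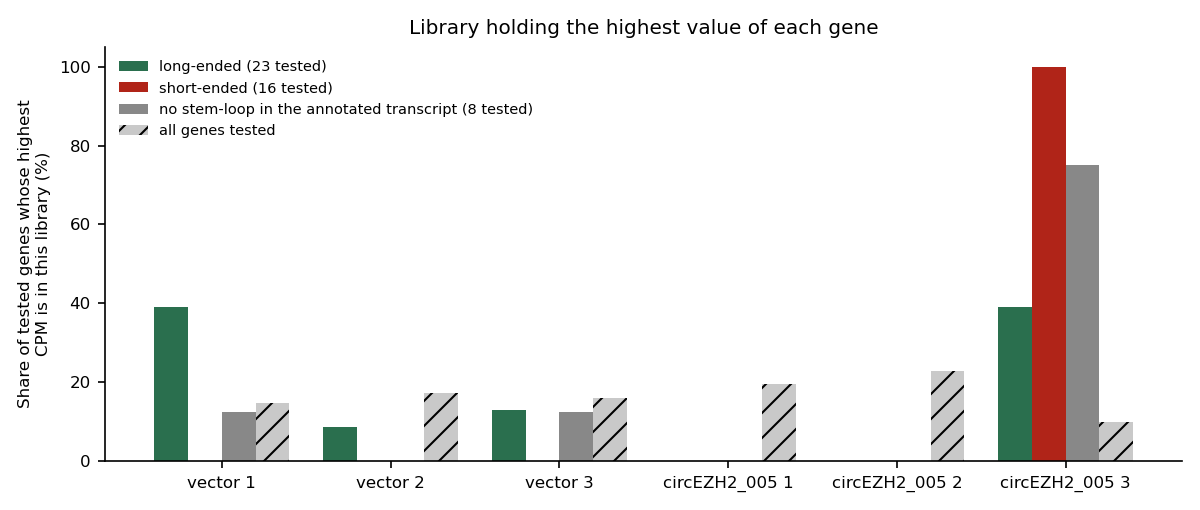
Share of tested genes whose highest CPM was in each library, by annotated end and for all 18348 genes tested (hatched). The members are long-ended (23), short-ended (16) or without a stem-loop in the annotated transcript (8). The bar of short-ended members stands at 100% in circEZH2_005 3, where the bar of all genes tested is at 9.87%.

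Other lists cover genes that act with the clustered histones, and their counts stand beside shares over all genes tested of 3.67% at the adjusted and 23.7% at the unadjusted p of 0.05. Of 12 tested variant histone genes, 0 passed the adjusted p of 0.05 (edgeR; DESeq2 called 1) and 1 had an unadjusted p under 0.05, H2aj, an H2A variant (log2 fold change -0.46, adjusted p = 0.0876, edgeR). H3f3b, a replication-independent H3.3 gene, had a mean of 555 ± 32.7 CPM in the vector samples and of 570 ± 29.2 CPM in the circEZH2_005 samples (SD, n = 3). Their median was -0.02 beside 0.00 over all genes. Of 40 genes of S phase 0 passed with edgeR or DESeq2 and 2 had an unadjusted p under 0.05; their log2 fold changes lay between -0.25 and 0.26, and Rfc3, a subunit of the clamp loader, had the smallest p (log2 fold change -0.23, adjusted p = 0.198, edgeR). Of 28 histone chaperone genes 0 passed with edgeR, 5 at an unadjusted p under 0.05, and DESeq2 called 3. The smallest p was that of Daxx, an H3.3 chaperone (log2 fold change 0.69, adjusted p = 0.0773, edgeR).

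Of 33 genes that process or degrade histone mRNA, 1 rose and 1 fell with circEZH2_005, against 2.69% and 0.986% of all genes tested. At an unadjusted p under 0.05 (edgeR) there were 7, against 23.7% of all genes tested. Tut7, a terminal uridylyltransferase that marks RNAs for decay, rose from 142 ± 1.84 to 218 ± 28.8 CPM (SD, n = 3; log2 fold change 0.62 ± 0.11, adjusted p = 0.0305, edgeR). Cstf3, a subunit of the cleavage stimulation factor that forms poly(A) ends, fell from 42.3 ± 2.10 to 31.0 ± 2.52 CPM (log2 fold change -0.45 ± 0.09, adjusted p = 0.0437, edgeR). Each call passed in 6 of 13 alternatives. Tut7 had adjusted p of 0.137 without vector 1, 0.138 without vector 3, 0.0631 without circEZH2_005 2 and 0.0534 without circEZH2_005 3, and Cstf3 had 0.167, 0.170, 0.119 and 0.0880 without the same libraries and 0.0609 without circEZH2_005 1. Slbp, which encodes the protein bound to the stem-loop, was at 69.8 ± 4.25 CPM with vector and 68.4 ± 3.89 CPM with circEZH2_005 (log2 fold change -0.03 ± 0.08, 95% interval -0.22 to 0.16).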

How the data were processed

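Counts per gene and sample, without normalization, and FPKM values per gene and sample were deposited by the authors. The submitters' processing notes name cutadapt 1.9, HISAT2 2.0.4, StringTie 1.3.4d, DESeq2 and the mm10 build, with no roles; the annotation and the counting settings are not given in the sources used here. Members and lists were chosen with earlier results of these data known.

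Counts of all genes were filtered with filterByExpr, scaled by TMM and compared with edgeR 4.0.16 (quasi-likelihood test, R 4.3.3, no covariate), with Benjamini-Hochberg adjustment over the 18348 genes tested. Standard errors were taken as the absolute log2 fold change over the root of the F statistic. Class sums have no test. No pair of libraries had equal counts in more than 1.25% of genes. Alternatives used DESeq2 1.42.0, limma 3.58.1 on log2(FPKM + 1) or log2(FPKM + 0.1) where the mean FPKM reached 0.5, scaling by median of ratios, other filters, a replicate block, summed copies and each sample left out.

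Named members were, in each class, the 3 with most counts, the tested ones with the highest and lowest log2 fold change, and the 1 with the highest FPKM; from other lists, genes past the adjusted p or else the smallest p, and Slbp. Marker lists of stem cell, epithelial, leukocyte, fibroblast and muscle, and endothelial genes were counted.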

Additional observations from a re-analysis of the deposited data

How the results depend on the processing

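The counts of members past the adjusted p of 0.05, 0 higher and 0 lower, were 0 under every alternative run. Of 272 values of the 21 named members under alternatives 0 passed and 253 had the sign of the first fit. Some of the 272, from DESeq2, had no adjusted p and so could not pass. The median log2 fold change of 0.31 was -0.40 with the filter of at least 1 CPM in 3 samples and -0.39 without circEZH2_005 3 and vector 2, an alternative chosen after seeing the data. Leaving out 1 library at a time it ranged from -0.29 (without circEZH2_005 3, over the members tested in that fit; -0.25 over the 47 of the first fit) to 0.71 (without circEZH2_005 2). Without the member with most counts the log2 ratios of the sums were 0.64 for H1, 0.64 for H2A and 0.55 for H4; H2A was 0.36 as a sum of FPKM, and H2A and H3 were -0.35 and -0.53 without circEZH2_005 3 and vector 2. Variant histone genes past the adjusted p numbered 1 with DESeq2 and 1 without these 2 libraries. Processing genes past it, 2 in the first fit, ranged from 0 (without vector 1, vector 3, circEZH2_005 2 or circEZH2_005 3) to 3 (without vector 2). Chaperone genes past it ranged from 0 to 1 (without vector 2), with 3 in DESeq2 and 1 without circEZH2_005 3 and vector 2. The cause of these shifts was not tested. With the replicate number as a block, 0 members passed, the median was 0.03, processing genes numbered 1 and chaperone genes 1; the numbers do not pair the samples (correlations of deviations -0.14, -0.02 and 0.04). Low counts limit the 39 tested members under a mean of 100 counts most.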

Other observations

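Stem cell markers included 2 of 11 past the adjusted p of 0.05, both lower with circEZH2_005, and epithelial markers 2 of 11, both higher (edgeR). Over all genes tested 0.986% were lower and 2.69% higher at that threshold, and 23.7% had an unadjusted p under 0.05. That unadjusted p was reached by 6 of 11 stem cell and 6 of 11 epithelial markers (edgeR). By sign 9 stem cell markers were lower and 2 higher, and 10 epithelial markers were higher and 1 lower. Lgr5, the receptor that marks these stem cells, had a mean of 15.5 ± 3.19 CPM in the vector samples and of 8.45 ± 0.702 CPM in the circEZH2_005 samples (SD, n = 3). These calls, of Lgr5, Smoc2, Krt8 and Krt20, were lost without vector 1 (adjusted p from 0.0976 to 0.158) and without vector 3 (0.103 to 0.166). Without circEZH2_005 2 Lgr5, Smoc2 and Krt8 had 0.126, 0.0806 and 0.0625, without circEZH2_005 3 they had 0.103, 0.0520 and 0.0612, and without circEZH2_005 1 Lgr5 had 0.0714. Leukocyte markers were higher in all 20 by sign, with 0 past the adjusted p and 11 at an unadjusted p under 0.05. Of the 20, 18 were highest in circEZH2_005 1 (19.5% of all genes tested) and 1 in circEZH2_005 3 (9.87% of all genes tested). Fibroblast and muscle markers had 0 of 11 past the adjusted p and 1 at an unadjusted p under 0.05, and of 6 endothelial markers 2 were tested and 1 passed, Pecam1, higher with circEZH2_005 (adjusted p = 0.0377, edgeR, and 0.133, 0.127, 0.0613, 0.122 and 0.0571 without vector 1, vector 3 and circEZH2_005 1, 2 and 3). Their part in the values of histone genes was not tested.

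Of 40 S phase genes, 24 had their highest CPM in circEZH2_005 1 (19.5% of all genes tested) and 0 in circEZH2_005 3 (9.87% of all genes tested). A part of S phase in the values of the histone members was not tested. Near-identical RNAs of the signal recognition particle, Rn7s1 and Rn7s2, had 4661 and 4748 counts in circEZH2_005 3 and at most 463 and 519 in the other libraries, both in vector 2.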
